A study of Mus musculus with 10 samples.

Results

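Fatty acid-binding proteins and acyl-CoA-binding proteins carry fatty acids and their activated CoA esters through the watery interior of the cell. Transcripts of these carriers were examined in the cerebral cortex of mice whose astrocytes lack the clock gene Bmal1. The group was fixed by name as Fabp7, Fabp5, Fabp3, Dbi, Acbd3, Acbd4, Acbd5, Acbd6 and Acbd7, that is, the brain fatty acid-binding proteins and Dbi with its acyl-CoA-binding domain relatives. Of these 9 genes, 8 were in the table of 12575 genes and all 8 passed the filter on low values. Levels of Acbd7 were not analysed here. The group was chosen by name, but with the CPM difference between BMAL1 aKO and Cre- libraries already known, so that difference is given as a description, no p-value is given for it, and nothing is drawn from which of these genes pass a threshold.

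BMAL1 aKO mice (5 libraries) carried Aldh1l1-CreERT2, a tamoxifen-dependent Cre driven by an astrocyte promoter, together with Bmal1 fl/fl. Cre- mice (5 libraries) were littermates with Bmal1 fl/fl and no Cre. Both groups had been given tamoxifen, were of mixed sex on a C57BL/6 background, lived in a regular light-dark cycle, and are labelled as 4 months old, an age on which the labels and the study text differ. The libraries were made from low-input total RNA with a kit that does not mark the strand. Values are CPM, that is, the reads of a gene scaled to the counted reads of its library. The tissue holds neurons, vessels and all glia with the astrocytes, so more cells of a type and more RNA per cell cannot be told apart here.

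FABP7, also called brain lipid-binding protein, is made by radial glia and astrocytes and binds polyunsaturated fatty acids such as docosahexaenoic acid. Its transcript cycles over the day in mouse brain and is repressed by REV-ERBα, a nuclear receptor whose gene is a target of BMAL1. FABP5 and FABP3 are its relatives in several brain cell types and in neurons. DBI, or acyl-CoA-binding protein, holds long-chain acyl-CoA esters and is also secreted by astrocytes as a peptide that acts on GABA-A receptors, while the ACBD proteins join the same acyl-CoA-binding domain to other parts.

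The promoter of Fabp7, the gene with the highest fold change, is shown because clock proteins act through short elements in such regions: BMAL1 with its partner binds the E-box CACGTG, and REV-ERBα binds the ROR element, with the core TAGGTCA. The sequence is from RefSeq (GRCm38.p6), 5′ to 3′ on the strand of the gene, and RefSeq promoters were matched for 6 of the 9 genes (8 start sites). Those 6 were Fabp7, Fabp3, Dbi, Acbd5, Acbd6 and Acbd7, and none was matched for Fabp5, Acbd3 and Acbd4. The Fabp7 stretch is chr10:57784673-57784880 on the plus strand. Capitals mark TGACCTA, the ROR core read on the other strand.
Fabp7: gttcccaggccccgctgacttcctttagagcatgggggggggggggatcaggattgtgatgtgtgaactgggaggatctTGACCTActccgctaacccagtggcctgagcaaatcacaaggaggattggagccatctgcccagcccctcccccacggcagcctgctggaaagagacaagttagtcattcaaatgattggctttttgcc

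The ROR core in the Fabp7 promoter begins 171 bases before the RefSeq start site, 57784923. The GENCODE annotation starts the gene earlier, at 57784881, and the 208 bases shown end just before that. The searched window of 250 bases ran on to the RefSeq start. On both strands of the 250 bases before the start, TAGGTCA was in 1 of the 8 windows of these genes, that of Fabp7, and in 2.23% of 32851 mouse promoters of the same length. The shorter half-site AGGTCA, which overlaps it, was also in 1 of the 8 windows and in 14.0% of all promoters. The E-box CACGTG was in 0 of the 8 windows and in 6.02% of all promoters. These are letter matches in a short window and say nothing of binding.

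Fabp7 (chromosome 10, 57784881 to 57788450, plus strand, GRCm38) was the gene of this family with the largest difference between the genotypes. BMAL1 aKO replicates 1 to 5 held 158, 201, 90.8, 237 and 137 CPM of it, against 11.8, 19.9, 16.9, 9.94 and 13.4 CPM in Cre- replicates 1 to 5. All 5 BMAL1 aKO libraries were above all 5 Cre- libraries, and the lowest of the first was 4.57 times the highest of the second. The means were 165 ± 56.6 CPM in BMAL1 aKO and 14.4 ± 3.98 CPM in Cre- mice (SD, n = 5 each), an 11.4-fold difference.

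In the fit across all genes, which gives each library a weight by its quality, the log2 fold change of Fabp7 was 3.53 (standard error 0.21), the highest of the 12573 genes tested. Among the Cre- libraries the weight was 7.19 for replicate 1 and 0.181 to 1.52 for the others. The fitted Cre- level of every gene therefore leans on that library. The plain difference of mean log2 values, without weights, was 3.44. With any 1 library left out the fitted value stayed between 3.28 and 3.83. Levels of Fabp7 spread 2.61-fold within the BMAL1 aKO group and 2.0-fold within the Cre- group, with replicate 3 lowest and replicate 4 highest among the BMAL1 aKO libraries. Between 364 and 9629 reads lay behind these values, so counting error was small beside the spread between libraries.

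Dbi (chromosome 1, 120113280 to 120121078, minus strand) also differed between the genotypes. BMAL1 aKO replicates 1 to 5 held 175, 179, 132, 235 and 193 CPM of it, against 83.0, 106, 70.0, 65.2 and 78.1 CPM in Cre- replicates 1 to 5. The groups again did not overlap, with the lowest BMAL1 aKO library at 1.24 times the highest Cre- library. The means were 183 ± 37.1 CPM in BMAL1 aKO and 80.4 ± 15.8 CPM in Cre- mice, 2.27-fold apart.

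The fitted log2 fold change of Dbi was 1.10 (standard error 0.13), rank 13 of all genes from the highest down, and the plain difference was 1.18. Leaving out 1 library moved it between 0.93 and 1.31, and without Cre- replicate 1, which carries the highest weight in the fit, Dbi no longer passed the threshold used for genes in general. As with Fabp7, replicate 3 was the lowest and replicate 4 the highest of the BMAL1 aKO libraries.

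**Figure D1:**
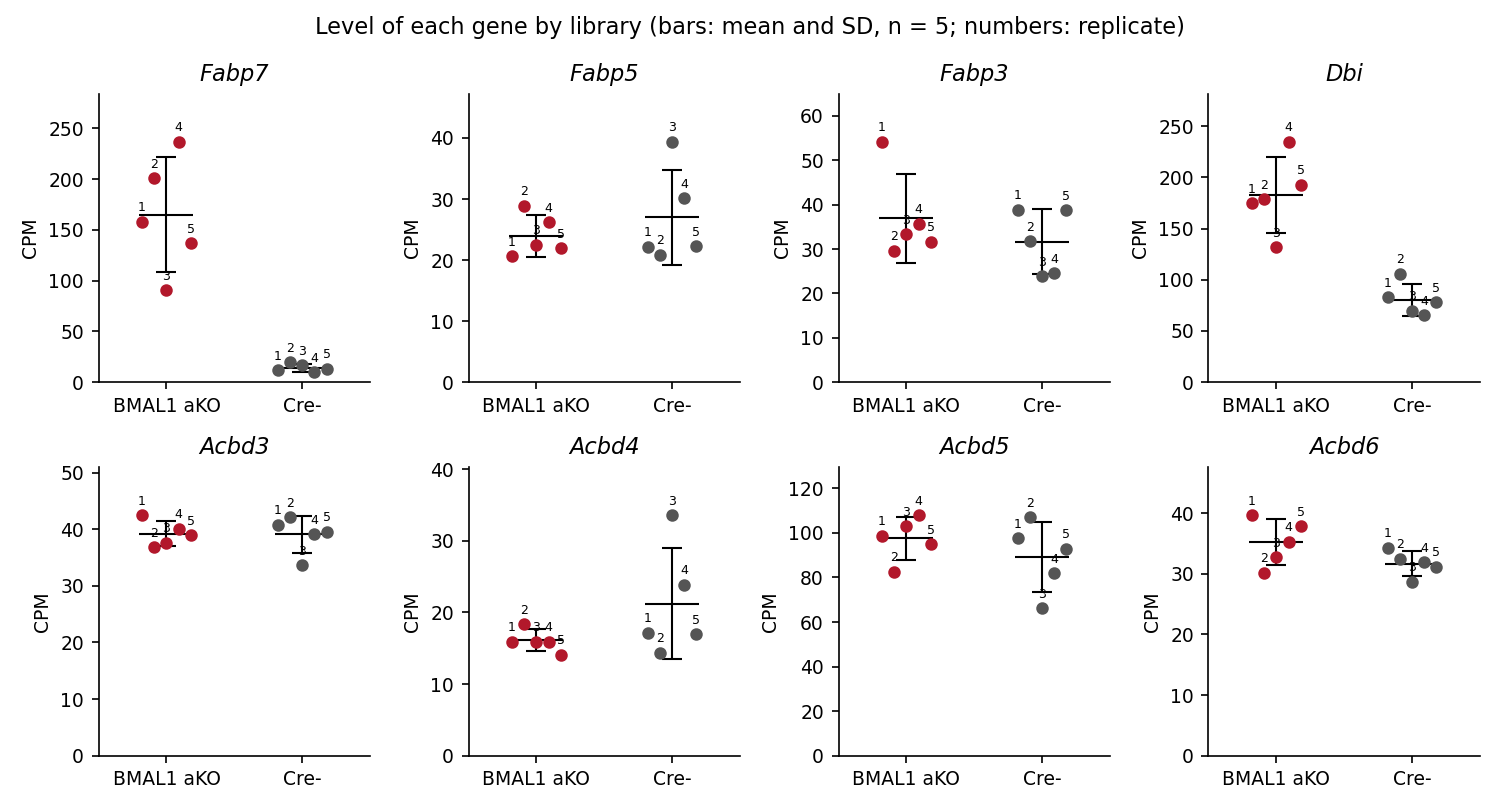
CPM of the 8 genes in each library, with BMAL1 aKO left and Cre- right in each panel; points are libraries numbered by replicate, and horizontal lines with bars are the mean and SD of 5 libraries. Fabp7 and Dbi separate the groups, while the other 6 genes overlap.

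Of the 8 genes, 2 passed an adjusted p of 0.1 in the fit and the same number did not overlap between the groups. Over all genes tested, 0.334% passed (42 of 12573), 0.286% as higher and 0.0477% as lower in BMAL1 aKO mice. The groups did not overlap in 1.0% of all genes, and in 0.620% BMAL1 aKO was the higher. Because the genes were picked with these values known, their count is no evidence.

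Fabp5 (chromosome 3, 10012548 to 10016607, plus strand), the epidermal relative that also carries endocannabinoids, had 20.6, 28.9, 22.5, 26.2 and 21.9 CPM in the 5 BMAL1 aKO libraries, in the order of replicates, against 22.2, 20.9, 39.4, 30.1 and 22.3 CPM in Cre- replicates 1 to 5. The groups overlapped, and the highest value belonged to Cre- replicate 3. The fitted log2 fold change was 0.06 (95% interval -0.16 to 0.28), and its sign changed with the processing, since the plain difference was -0.13.

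Fabp3 (chromosome 4, 130308595 to 130315463, plus strand), the heart-type relative that is prominent in neurons, had 54.2, 29.6, 33.3, 35.7 and 31.6 CPM in the BMAL1 aKO libraries, against 38.9, 31.8, 23.9, 24.5 and 38.8 CPM in Cre- replicates 1 to 5. Here too the groups overlapped, and BMAL1 aKO replicate 1 stood above all other libraries. The fitted log2 fold change was -0.10 (95% interval -0.37 to 0.18) and the plain difference was 0.22. Without BMAL1 aKO replicate 1 the means were 32.6 ± 2.57 and 31.6 ± 7.32 CPM.

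The counts of both genes are less certain than those of the others, because near-identical processed pseudogenes can share their reads. Fabp5 has 5 such copies at 90% identity or more over 80% of its longest open reading frame, of which Gm6166 (98.3% identity) is in the table at 3.57 to 10.9 CPM in BMAL1 aKO and 1.04 to 10.5 CPM in Cre- libraries. Fabp3 has 1, Fabp3-ps1 (99.3% identity), at 2.10 to 9.28 CPM in BMAL1 aKO and 1.25 to 4.42 CPM in Cre- libraries. The highest Fabp3-ps1 value was again in BMAL1 aKO replicate 1, and summed with Fabp3 it gave 41.1 ± 12.8 CPM in BMAL1 aKO and 34.3 ± 8.52 CPM in Cre- mice. The Fabp3 gene also shares 81 exon bases with Zcchc17 on the opposite strand, whose reads cannot be told apart without strand. Fabp7 and Dbi have no copy by this rule, although a pseudogene of Dbi that is not in the table aligned over 256 bases. Acbd5 has 3 partial copies at 91.0 to 92.7% identity, none of them in the table, the longest aligned over 1020 bases.

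Among the acyl-CoA-binding domain genes, Acbd3, a Golgi scaffold that recruits the lipid kinase PI4KB, was at 36.8 to 42.5 CPM in BMAL1 aKO and 33.7 to 42.1 CPM in Cre- libraries. Its fitted log2 fold change of -0.06 had a 95% interval of -0.19 to 0.07, and it varied least of the 8 genes in the BMAL1 aKO group. Acbd5, a peroxisomal protein that tethers peroxisomes to the endoplasmic reticulum and handles very-long-chain acyl-CoA, was at 82.6 to 108 CPM in BMAL1 aKO and 66.3 to 107 CPM in Cre- libraries (log2 fold change 0.04, 95% interval -0.13 to 0.21). These intervals leave out changes of the size seen for Dbi.

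Acbd4, the second peroxisomal tether, had 15.9, 18.4, 15.9, 15.9 and 14.1 CPM in the BMAL1 aKO libraries, against 17.2, 14.4, 33.6, 23.9 and 17.0 CPM in Cre- replicates 1 to 5. The groups overlapped, and the Cre- mean of 21.2 ± 7.76 CPM was raised by replicates 3 and 4 over the BMAL1 aKO mean of 16.1 ± 1.54 CPM. The fitted log2 fold change was -0.14 (95% interval -0.37 to 0.08) and was below 0 in all 23 settings tried.

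Acbd6, which aids the N-myristoylation of proteins, had 39.7, 30.2, 32.8, 35.3 and 37.9 CPM in the BMAL1 aKO libraries, against 34.3, 32.5, 28.7, 31.9 and 31.2 CPM in Cre- replicates 1 to 5. In 3 of the 5 BMAL1 aKO libraries it lay above the highest Cre- library, and its fitted log2 fold change was 0.06 (95% interval -0.10 to 0.22). The plain difference was 0.14, and with the replicate number as a block in the fit the value was 0.22.

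**Figure D2:**
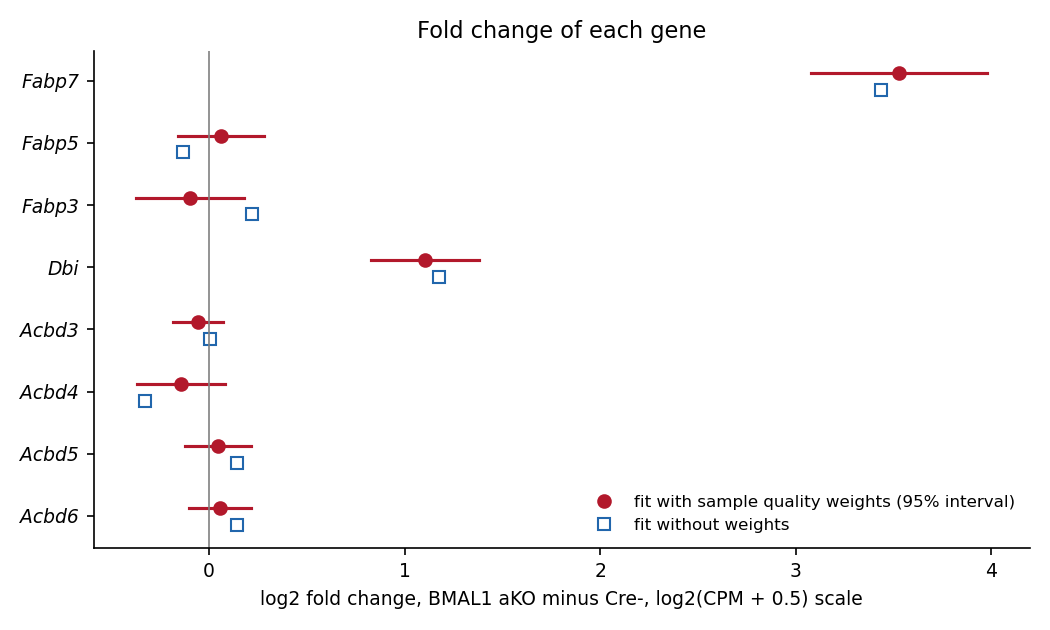
Log2 fold change of each gene, BMAL1 aKO minus Cre-, from the fit with quality weights (circles, with 95% intervals) and without weights (squares). With weights, Fabp7 was at 3.53, Dbi at 1.10 and the other 6 genes at -0.14 to 0.06. The intervals describe the fit and are no test, because the genes were chosen with this difference known.

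Levels of different genes can be compared only per length. Per kilobase of the longest protein-coding transcript, the order in BMAL1 aKO libraries was Dbi (321 CPM per kb), Fabp7 (187), Fabp3 (44.8), Fabp5 (24.3), Acbd5 (20.3), Acbd3 (11.3), Acbd4 (7.74) and Acbd6 (6.29). In Cre- libraries it was Dbi (141 CPM per kb), Fabp3 (38.4), Fabp5 (27.3), Acbd5 (18.6), Fabp7 (16.4), Acbd3 (11.3), Acbd4 (10.2) and Acbd6 (5.67). By this length Fabp7 stood at place 2 of 8 in BMAL1 aKO and at place 5 of 8 in Cre- cortex.

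In the Cre- order, neighbours whose ranges over the 5 libraries did not overlap were Dbi over Fabp3 and Acbd4 over Acbd6; the other 5 neighbour pairs overlapped. No exact sign-flip test of 5 libraries can go below p = 0.0625, two-sided, and the adjusted p of the 7 pairs was 0.146 or more. The order depends on the length taken. Fabp7 stood at place 1 in BMAL1 aKO and 3 in Cre- cortex over the union of exons, and at place 2 in BMAL1 aKO and 4 in Cre- cortex over the longest transcript. Over the union of exons only Fabp3 over Fabp7 did not overlap, and over the longest transcript 3 pairs did not.

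Within the fatty acid-binding protein genes, Fabp7 made up 67.4, 77.8, 62.0, 79.4 and 71.9% of the summed level per kb in BMAL1 aKO replicates 1 to 5, against 16.2, 27.4, 21.8, 15.8 and 18.0% in Cre- replicates 1 to 5. All these shares were taken per kb of the longest protein-coding transcript. The sum itself was 256 ± 67.3 CPM per kb in BMAL1 aKO and 82.1 ± 6.24 CPM per kb in Cre- mice. Fabp3 made up 18.4 ± 6.04% in BMAL1 aKO and 46.8 ± 9.91% in Cre- cortex, and Fabp5 9.93 ± 2.40% in BMAL1 aKO and 33.4 ± 9.65% in Cre- cortex. Per kb of the longest protein-coding transcript, Fabp3 had a larger share than Fabp5 in 3 of the 5 Cre- libraries. Over the union of exons or the longest transcript, the level of Fabp3 was above that of Fabp5 in all 5 Cre- libraries. The Cre- mean of Fabp3 was 38.4 CPM per kb by both lengths. That of Fabp5 was 7.56 CPM per kb over the union of exons and 8.33 over the longest transcript. Shares by those lengths were not computed. By the longest protein-coding transcript again, Dbi made up 87.3 ± 2.36% of the summed acyl-CoA-binding genes in BMAL1 aKO and 75.2 ± 3.09% in Cre- mice.

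**Figure D3:**
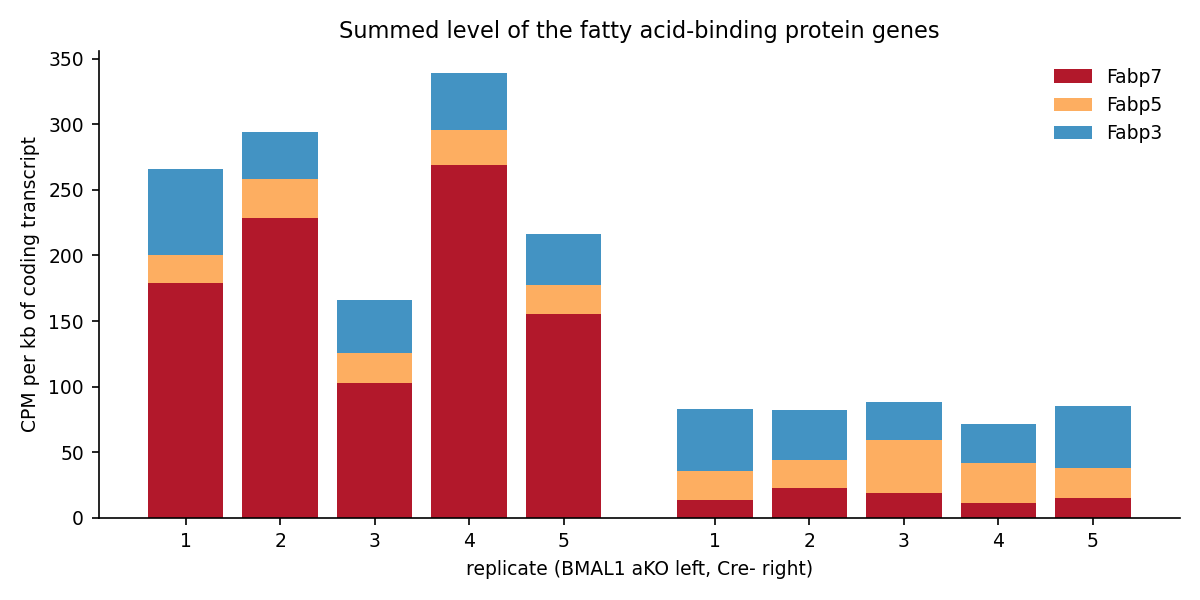
Stacked CPM per kb of coding transcript of Fabp7, Fabp5 and Fabp3 in each library, BMAL1 aKO left and Cre- right. The whole bars reach 166 to 339 in BMAL1 aKO and 71.6 to 88.1 in Cre- libraries, and Fabp7 is 62.0 to 79.4% of each BMAL1 aKO bar and 15.8 to 27.4% of each Cre- bar.

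Relative to Aldh1l1, the astrocyte gene that drives the Cre, Fabp7 was at 2.43 to 7.21 CPM per CPM in BMAL1 aKO and 0.175 to 0.656 in Cre- libraries, and Dbi at 3.52 to 7.16 in BMAL1 aKO and 1.15 to 3.49 in Cre- libraries. Aldh1l1 itself averaged 38.0 ± 4.36 CPM in BMAL1 aKO and 44.0 ± 11.6 CPM in Cre- mice (log2 fold change -0.04, limma adjusted p = 0.865). The summed CPM of 10 astrocyte markers was 8109 to 9819 in BMAL1 aKO and 6983 to 8758 in Cre- libraries. The largest part was Slc1a2, at 5259 ± 373 CPM in BMAL1 aKO and 4541 ± 581 CPM in Cre- mice. Of these markers 1 passed the test, the gap junction gene Gja1 (0.44, limma adjusted p = 0.0273), beside 0.334% of all genes. Log2 fold changes of the 10 ran from -0.20 to 0.66, with a median of 0.09. The highest was that of Gfap (limma adjusted p = 0.123). The sum of 11 radial glia and progenitor markers was 495 to 682 CPM in BMAL1 aKO and 444 to 534 CPM in Cre- libraries. Most of it was Ptprz1, at 363 ± 65.2 CPM in BMAL1 aKO and 276 ± 15.4 CPM in Cre- mice. Log2 fold changes of the 11 ran from -0.12 to 0.61, with a median of 0.12. Of the 11, 0 passed the test, and 3 were higher and 0 lower at an unadjusted limma p of 0.05. Of all 12573 genes tested, 858 were higher and 1259 lower at that p. Among the 3 was Hes5, whose means were 3.13 CPM in BMAL1 aKO and 3.14 CPM in Cre- mice. Top2a was not in the table. Of 6 olfactory ensheathing markers 4 were measured, with sums of 145 to 191 CPM in BMAL1 aKO and 127 to 172 CPM in Cre- libraries. Npy made up most of these sums, at 127 ± 16.1 CPM in BMAL1 aKO and 99.4 ± 20.2 CPM in Cre- mice. Frzb, Fam210b and Mybpc1 had log2 fold changes of 0.003 to 0.08. Whether such cell types take part in the Fabp7 and Dbi values was not tested.

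Library variation within groups was compared between the genes in pairs. Taken as deviations from the group means over all 10 libraries, Fabp7 and Dbi went together at Pearson's r = 0.786 (exact permutation within groups, two-sided p = 0.0169, adjusted p = 0.0474 over 28 pairs) and Spearman's rho = 0.648 (exact permutation p = 0.0652, adjusted p = 0.121). Without the 2 libraries farthest from the median of Fabp7, BMAL1 aKO replicates 3 and 4, r was 0.528, so the relation rests in part on them. Between Fabp7 and each of the other 6 genes r lay between -0.137 and 0.206. The 8 neuron markers summed to 8765 to 10188 CPM in BMAL1 aKO and 9194 to 10393 CPM in Cre- libraries; their sum was highest in replicate 3 among the BMAL1 aKO libraries, where Fabp7 and Dbi were lowest. Its part in the relation was not tested.

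Fabp5 and Acbd4 had the highest r, at 0.94 (exact permutation p = 0.00153, adjusted p = 0.0331; rho = 0.915, adjusted p = 0.0715), and 0.84 without Cre- replicate 3 and BMAL1 aKO replicate 2. Acbd4 and Acbd5 ran against each other at r = -0.905 (exact permutation p = 0.00347, adjusted p = 0.0331; rho = -0.77, adjusted p = 0.0947), and r was -0.686 without Cre- replicates 2 and 3. In all, 10 of 28 pairs had an adjusted p of 0.05 or less by Pearson's r and 0 by Spearman's rho, where the smallest was 0.0574. The share of such pairs among genes in general was not computed, so the count shows nothing particular to this family. The mitochondrial share moved with these genes: mitochondrial transcripts were 6.19% of Cre- replicate 3, where Acbd4 and Fabp5 were highest and Acbd5 lowest, 9.29% of Cre- replicate 4, and 13.4 to 19.9% of the other 8 libraries. Microglial markers summed to 198 to 275 CPM in BMAL1 aKO and 201 to 308 CPM in Cre- libraries, with the highest again in Cre- replicate 3. The part of either in the relations was not tested.

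**Figure D4:**
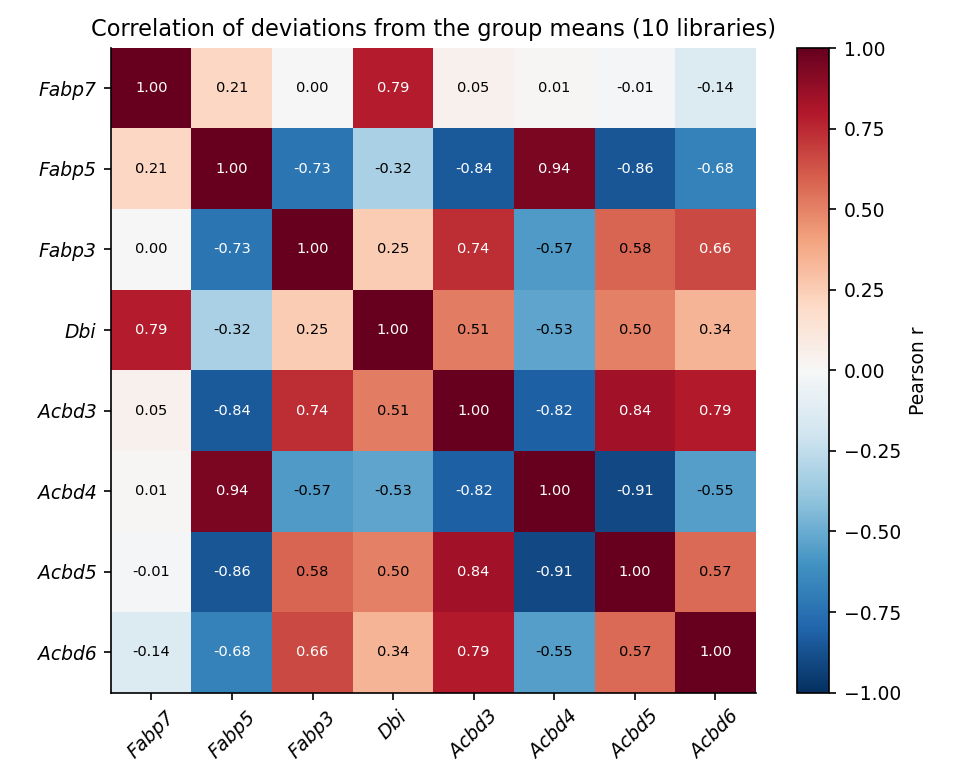
Pearson's r of log2 deviations from the group means for each pair of the 8 genes over 10 libraries; red is positive, blue negative. Fabp7 has its highest r with Dbi (0.786), and Fabp5 and Acbd4 have negative r with Acbd3 and Acbd5.

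The 5 genes whose deviations were most like those of Fabp7, of 11532 genes at 5 CPM or more, were Fmo1 (r = 0.959 over 10 libraries), Ptgds (0.928), Ppfibp1 (0.92), Colec12 (0.903) and Phactr2 (0.891). For Dbi they were Rnd2 (r = 0.942), Arhgap12 (0.928), Yes1 (0.926), S100a10 (0.925) and Pdss2 (0.924). These are the highest of 11532 values over only 10 libraries, given as a description with no test. High values can arise by chance in such a search. Of the 10, Rnd2 passed the test between genotypes, beside 0.334% of all genes. It was at 136 CPM in BMAL1 aKO and 91.5 CPM in Cre- mice (log2 fold change 0.50, limma adjusted p = 0.0213). Rnd2 lost the call in 6 of 23 alternatives.

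Genes of the wider fatty acid pathway are given beside all genes tested, of which 0.334% passed and whose median log2 fold change was -0.04. Of 20 measured genes of polyunsaturated fatty acid release and remodelling, 1 rose and 0 fell. This was Pla2g7, the secreted platelet-activating factor acetylhydrolase, at 156 ± 21.2 CPM in BMAL1 aKO and 115 ± 11.3 CPM in Cre- mice (log2 fold change 0.44, standard error 0.09, limma adjusted p = 0.0918), and it lost the call in 13 of 23 alternatives. Mfsd2a, the transporter of docosahexaenoic acid lysolipid at the blood-brain barrier, was at 8.26 ± 0.97 CPM in BMAL1 aKO and 12.4 ± 5.16 CPM in Cre- mice (limma adjusted p = 0.221).

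Among 13 measured genes of fatty acid uptake and activation, 9 acyl-CoA thioesterases, 19 genes of mitochondrial and 16 of peroxisomal beta-oxidation, 0 passed in either direction, with list medians of -0.06, -0.05, 0.09 and -0.05. At an unadjusted p of 0.05, which 858 genes met as higher and 1259 as lower over all genes (16.8%), the lists held 1 higher and 1 lower gene for uptake and activation, 1 and 2 for the thioesterases, 4 and 0 for the mitochondrial and 0 and 0 for the peroxisomal list. In the mitochondrial list the smallest p was that of Eci1, an isomerase of unsaturated acyl-CoA, at 10.3 ± 1.49 CPM in BMAL1 aKO and 9.55 ± 0.84 CPM in Cre- mice (limma adjusted p = 0.212). The 4 higher genes of that list leaned on the library weights, except Acadm. Fitted log2 fold changes and plain differences were 0.26 and 0.10 for Eci1, and 0.24 and 0.05 for Hadh. They were 0.40 and 0.03 for Cpt2, and 0.14 and 0.15 for Acadm. Of the acyl-CoA synthetases, Acsl3, which is tied to lipid droplets, was at 282 ± 15.4 CPM in BMAL1 aKO and 233 ± 45.7 CPM in Cre- mice (limma adjusted p = 0.199).

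Of 14 measured PPAR receptors and targets, 0 passed, and the median was 0.13. Pdk4, the kinase that restrains pyruvate dehydrogenase, was nearest, with a log2 fold change of 0.55 (limma adjusted p = 0.123), followed by Lpl, lipoprotein lipase (0.34, adjusted p = 0.140). Of 7 genes for the GABA-A subunits of the benzodiazepine site, on which the DBI peptide acts, 0 passed and the median was -0.11; Gabra3 was at 108 ± 8.40 CPM in BMAL1 aKO and 119 ± 12.4 CPM in Cre- mice (limma adjusted p = 0.159), and Tspo was not in the table. Of 12 partners of the ACBD proteins 0 passed, and Pi4kb, the kinase bound by ACBD3, had a log2 fold change of -0.33 (limma adjusted p = 0.192). At an unadjusted p of 0.05 the PPAR list held 3 higher and 1 lower gene, the release and remodelling list 3 and 1, the GABA-A list 0 and 2, and the partners 0 and 1.

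Fabp1, the liver relative, was left out by the filter on low values. It was at 30.5 CPM in BMAL1 aKO replicate 1, 0.0836 to 1.08 CPM in the other 4 BMAL1 aKO libraries and 0.0473 to 0.655 CPM in Cre- libraries. The liver gene Alb was at 185 CPM in that library, 1.42 to 16.7 CPM in the other BMAL1 aKO libraries and 1.04 to 16.0 CPM in Cre- libraries, and choroid plexus markers were also highest there, at 1066 CPM in sum, against 932 CPM in the highest Cre- library. Their part in the Fabp3 value of that library was not tested. Without it the fitted log2 fold change of Fabp7 was 3.58.

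For the series as a whole, libraries held 21844770 to 48295715 reads. Arntl, the symbol of Bmal1, was at 34.5 ± 2.93 CPM in BMAL1 aKO and 34.2 ± 2.25 CPM in Cre- mice (log2 fold change 0.01, limma adjusted p = 0.932); all its exons were counted in tissue with many cells that keep the gene, so it checks no label. The labels list 1 more BMAL1 aKO library than the study describes and do not say which, so each library was left out in turn. Counting error was small beside the differences between replicates: for each of 20 pairs of libraries of 1 group, chi-square divided by its degrees of freedom was 12.9 or more.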

How the data were processed

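RNA of cerebral cortex was sequenced in 5 BMAL1 aKO and 5 Cre- libraries. The authors deposited CPM per gene and library, made with STAR 2.5.1a on GRCm38 and featureCounts 1.4.6-p5. The methods also name TMM scaling and removal of ribosomal genes; TMM scaling does not show in the deposited CPM, whose sums were 99.1 to 99.3% of the unscaled total, and the ribosomal step was not repeated. Each value was a whole multiple of the smallest step of its library within 0.01 read, which gave the depths; intervals cover spread between libraries, not other error.

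Genes above 1 CPM in at least 4 libraries (12573 of 12575) entered limma 3.58.1 (R 4.3.3) as log2(CPM + 0.5), with sample quality weights, a variance trend and Benjamini-Hochberg adjustment at 0.1. The fold change of a low gene is understated by the pseudocount. The step was also run on simulated data in which all libraries had the same quality. That run therefore does not cover the unequal quality of these libraries. The members and lists were chosen with earlier results of these data known. Genes named were the members, Arntl, Aldh1l1, up to 4 of each list with the smallest p, and the 5 most correlated with Fabp7 and with Dbi; Fabp1, Alb, Fabp3-ps1, Gm6166 and Zcchc17 were chosen after their values were seen. Names and lengths were from GENCODE M21 (12556 names matched), copies from blastn 2.17.0, promoters from RefSeq. Permutations used SciPy 1.17.1. Alternatives were other pseudocounts, filters, scalings, weights, a voom fit, a replicate block, a threshold of 0.05 and each library left out; others were chosen after seeing the data. Nothing in the labels says that libraries of a group come from separate animals, so p-values measure the spread between these libraries. Some items are not reported here.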

Additional observations from a re-analysis of the deposited data

Results flagged for a closer look

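Fabp3 in BMAL1 aKO replicate 1 lay far from the other 4 libraries of its group, at 54.2 CPM, with a gap to the nearest of 0.754 of the whole range of the group, above the critical value of 0.71 for 5 samples. It was the 1 group out of 16 (8 genes in each genotype) with such a library, and chance gives about 1 in 20 groups.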

How the results depend on the processing

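Over the 13 settings that keep all libraries, the log2 fold change of Fabp7 was 3.44 to 3.62 and that of Dbi 1.10 to 1.26. As a description only, since the genes were chosen with this difference known, 2 of the 8 passed the threshold in each, and 1 to 2 with 1 library left out, the 1 being the fit without Cre- replicate 1, where Dbi lost the call and the weights did not converge. Fabp5, Fabp3 and Acbd3 changed sign between settings. Counts over all genes moved far more: 42 genes passed, against 4 with no quality weights (also with TMM scaling, added after seeing the data), 68 with TMM scaling, 65 with quantile normalization, 20 at a threshold of 0.05, and 1 (without Cre- replicate 1) to 844 (without BMAL1 aKO replicate 3) with 1 library left out. Of the pathway genes, 1 passed, against 0 with no weights, with or without TMM scaling, with the voom fit and at the threshold of 0.05, 2 with median-of-ratios scaling and with quantile normalization, 3 with TMM scaling, and 0 to 8 with 1 library left out. The numbers of neighbours in the order of levels that did not overlap were 1 over the union of exons, 3 over the longest transcript and 2 over the longest protein-coding transcript. The cause was not tested.

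No pairing of libraries by replicate number was seen. The correlation of same-numbered libraries ran from -0.625 to 0.364, and 0 of 5 BMAL1 aKO libraries had their best match in the same number. With so few libraries of unequal quality, this check cannot exclude a pairing. With a replicate block, 7 genes and 0 pathway genes passed. As a description only, the log2 fold change in that fit was 3.46 for Fabp7 and 1.26 for Dbi. A planned quasi-likelihood count test was not run.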
